A study of Mus musculus with 45 samples.

Results

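The Wnt ligand genes described here were Wnt2b, Wnt3, Wnt4, Wnt5a, Wnt5b, Wnt6, Wnt9a, Wnt9b, Wnt10a and Wnt11 of the mouse. They were chosen by symbol, as the genes of these names present in both expression tables of the series, and all 10 were found among 52636 gene identifiers. The study sequenced RNA from Lgr5-positive cells sorted from mouse small intestine and from intestinal organoids, to ask how the receptor Lgr5 and its Rspondin ligands act on intestinal stem cells before and after birth. There were 15 libraries of sorted cells in 7 groups and 30 organoid libraries in 12 groups. In the Lgr5-DTReGFP line, a cassette for a toxin receptor joined to a green fluorescent protein was inserted at Lgr5, so each inserted copy disrupts the gene it reports. HE animals carried 1 disrupted copy, KO animals carried 2, and no sorted library came from an animal with 2 intact copies.

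On day E16.5 of gestation, GFP-positive cells of the whole small intestine came from pools of 7 and 8 HE embryos and of 2 and 6 KO embryos, the pools numbered 1 from litter 85 and those numbered 2 from litter 97. At E18.5 they came from 2 single HE embryos, and at 2 months of age from the duodenum and the ileum of HE mice 71 and 77. A further 5 adult ileum libraries came from mice carrying Lgr5-GFP-CreERT2, in which Cre is made only in cells with an active Lgr5 promoter, and a Rosa26 Tomato reporter; they were labelled HE (Lgr5-Cre/+, 2 mice) or cKO (Lgr5-Cre/flox, 3 mice). These mice were 2 months old, received 2 mg of tamoxifen and were harvested 48 hours later, and their sorted cells were positive for both eGFP and RFP. Organoids were grown from E17.5 small intestine of the Lgr5-DTReGFP line and taken at passage 4 from 3 wild-type cultures (WT10, WT5, WT30) and 2 knockout cultures (KO7, KO2), each from 1 embryo. Every culture was exposed to mouse Rspondin 1, 2 or 3 at 100 or 5 ng/ml, in medium that also held EGF and noggin. The labels name no inbred strain.

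Wnt proteins are secreted signals that carry a lipid added by the enzyme Porcn and leave the cell with the carrier Wls. Canonical ligands bind a Frizzled receptor together with Lrp5 or Lrp6 and stabilise beta-catenin, which switches on targets such as Axin2 and Lgr5, while non-canonical ligands such as Wnt5a and Wnt11 act mainly through other branches that guide cell shape and movement. In the small intestine Wnt3 is known as the ligand of Paneth cells, which sit beside the stem cells, and Wnt2b, Wnt4 and Wnt5a are known from the mesenchyme below the epithelium; Rspondins bind Lgr receptors and keep Frizzled receptors at the cell surface.

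Sequencing depth set what could be seen of genes this rare. The sorted libraries held between 1275950 and 9984676 reads, so that in the shallowest a single read stood for 0.784 CPM, the unit of reads scaled to a common library size, while the organoid libraries, whose table names no unit and was read as CPM, were estimated from the spacing of their values to hold between 18128000 and 33106000 reads, at 0.0552 to 0.0302 CPM a read. In HE pool 1 at E16.5 the 10 ligand genes together had a summed level of 21.3 CPM, and in HE pool 2 of 16.4 CPM. Their sum was 7.40 and 11.6 CPM in the KO pools, 9.65 and 7.40 CPM at E18.5, 12.4 and 16.6 CPM in adult duodenum and 17.9 and 39.4 CPM in adult ileum. Wnt ligands were thus a very small share of the RNA in every library, and most members were measured by a few reads. Fewer cells that make a ligand and less of its RNA per cell cannot be told apart in such bulk samples.

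Lgr5 itself served as a check on the labels. The E16.5 HE pools held 104.25 and 125.1 CPM of it, and the KO pools of the same litters held 64.75 and 51.65 CPM, a log2 difference of -0.97 (SE 0.18, adjusted p = 0.0795). The E18.5 embryos had 306.05 and 292.4 CPM, the duodenum 345.85 and 308.4 CPM and the ileum 339.1 and 355.95 CPM. Counts over the whole gene do not tell the disrupted transcript from the intact one, so the lower level in the KO pools checks the label only in part. In the libraries labelled Cre HE, Lgr5 was at 52.8 and 87.55 CPM, and in those labelled cKO at 89.15, 109.35 and 90.65 CPM. The flox allele loses a single exon, so this total checks nothing there. The study's supplementary table of expression values assigned the other genotype to 2 of these 5 libraries, those labelled HE 1 and cKO 2, and the libraries are named by their labels throughout. Epcam, which marks epithelium, was between 843.5 and 1279.05 CPM in the sorted libraries.

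In organoids Lgr5 was higher at the high dose in every culture, except in KO2 with Rspondin 2. WT10, WT5 and WT30 had 116.3, 191.9 and 94.2 CPM with Rspondin 1 at 100 ng/ml and 5.4, 5.65 and 3.45 CPM at 5 ng/ml. With Rspondin 2 they had 379, 246.95 and 457.5 CPM at the high dose and 15.9, 28.7 and 6.1 CPM at the low dose, and with Rspondin 3 they had 50.65, 48.85 and 39.35 CPM against 0.35, 0.6 and 0.45 CPM. KO7 and KO2 had 57.85 and 91.65 CPM against 1.1 and 7.4 CPM with Rspondin 1, 104.45 and 75 CPM against 20.55 and 90.45 CPM with Rspondin 2, and 35.15 and 41.25 CPM against 0.2 and 0.25 CPM with Rspondin 3. Reads on Lgr5 were thus present in KO cultures too. The KO cultures were below all WT cultures with Rspondin 1 and 2 at 100 ng/ml and with Rspondin 3 at 5 ng/ml, and overlapped them in the other 3 conditions, so the total checks the label only in part.

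The ligand genes differed in position and in how cleanly they could be counted. Wnt3 (ENSMUSG00000000125) lies on chromosome 11 of GRCm38 from 103774150 to 103817957 on the plus strand, and Wnt9b (ENSMUSG00000018486) ends its 5′ side 24328 bases before it on the opposite strand. Wnt6 and Wnt10a are neighbours on chromosome 1, 6193 bases apart on the same strand. Wnt4 (ENSMUSG00000036856) spans chromosome 4 from 137277489 to 137299726, Wnt2b (ENSMUSG00000027840) chromosome 3 from 104945272 to 104961921, and Wnt5a (ENSMUSG00000021994) chromosome 14 from 28504750 to 28527448. Wnt5b on chromosome 6 overlaps Fbxl14 on the opposite strand, and since Fbxl14 reached 114 CPM in sorted cells and 111 CPM in organoids, the low counts of Wnt5b are uncertain. The genes that overlap Wnt2b, Wnt5a, Wnt6 and Wnt11 stayed at or below 1.60 CPM.

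Promoter windows of 300 bases around the transcription start were given by RefSeq (GRCm38.p6) for 8 of the 10 members, in 11 windows; Wnt5a and Wnt10a had no entry. Some of them are printed up to the annotated start of the gene: Wnt3 and Wnt4 because their levels moved with the Rspondin dose in organoids, and Wnt11 because it held the motif searched, ATCAAAG, written in capitals. The Wnt3 stretch is chr11:103773925-103774149, that of Wnt4 is chr4:137277385-137277488 and that of Wnt11 is chr7:98834862-98835111, all on the plus strand. 
Wnt3: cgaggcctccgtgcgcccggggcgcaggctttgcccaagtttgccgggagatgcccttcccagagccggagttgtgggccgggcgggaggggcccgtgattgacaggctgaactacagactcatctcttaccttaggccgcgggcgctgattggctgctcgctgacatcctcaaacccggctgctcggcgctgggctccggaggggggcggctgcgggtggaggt
Wnt4: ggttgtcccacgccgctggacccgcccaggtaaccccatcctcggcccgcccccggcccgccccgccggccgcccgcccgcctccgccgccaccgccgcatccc
Wnt11: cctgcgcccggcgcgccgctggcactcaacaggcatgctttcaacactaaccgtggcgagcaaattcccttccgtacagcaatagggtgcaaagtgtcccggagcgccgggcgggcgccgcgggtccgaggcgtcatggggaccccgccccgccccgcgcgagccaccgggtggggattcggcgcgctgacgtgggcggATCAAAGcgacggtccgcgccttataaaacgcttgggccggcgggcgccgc
The motif, CTTTGAT on either strand, is the sequence that the TCF partners of beta-catenin prefer. It was present in 2 of the 11 member windows, one of Wnt11 and one of Wnt5b, and in 1225 of all 32851 windows (3.73%). No match in the windows of Wnt3, Wnt4, Wnt2b, Wnt6, Wnt9a and Wnt9b says only that these letters are not in them.

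From E16.5 to E18.5, the non-canonical ligand Wnt5a fell, while no canonical ligand passed the test on the libraries of this comparison. The E16.5 HE pools held 12.55 and 11.65 CPM of Wnt5a, the E18.5 embryos 1.2 and 1.55 CPM. Both pools were far above both embryos, with 16 and 23 reads against 5 and 7. The log2 difference was -2.47 (SE 0.32, 95% interval -3.24 to -1.69, adjusted p = 0.00201). Of the 5 members with at least 1 CPM in at least 2 libraries of the comparison (Wnt2b, Wnt3, Wnt4, Wnt5a and Wnt9b), 1 was called, a fall, where called means an adjusted p below 0.1 and a fold above 1.5; among all 18408 genes tested 49.6% were called. A share that large makes a single call among 5 no result about ligands as a group. Wnt5a was called without the filter on low values as well (adjusted p = 0.0215), and by edgeR on the recovered reads, where the log2 difference was -3.25.

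The canonical ligands stayed near the detection limit over these 2 days. Wnt3, the Paneth cell ligand, was at 1.6 and 0.55 CPM in the pools and 2.1 and 1.35 CPM in the embryos (log2 difference 0.43, SE 0.39, adjusted p = 0.401). Wnt2b, a mesenchymal canonical ligand, was at 0 and 1.05 CPM and then at 2.1 and 1.55 CPM (0.97, SE 0.43, adjusted p = 0.104). Wnt9b, known for its role in kidney and face development, was at 0.8 and 0 CPM and then at 1.85 and 1.1 CPM (0.87, SE 0.40, adjusted p = 0.119). For Wnt2b and Wnt9b both embryos were above both pools, and with the number of the library as a replicate block both passed the threshold (adjusted p = 0.0579 and 0.0895), although this number pairs no animals here. Both also passed in a fit of all 15 sorted libraries (adjusted p = 0.0448 and 0.0876). Leaving out each library in turn gave differences of 0.46 to 1.49 for Wnt2b and of 0.44 to 1.29 for Wnt9b. In the test on these 4 libraries Wnt9b reached the filter only through the embryos in which it was high. The groups of Wnt3 overlapped. Wnt4, which acts through either branch depending on the tissue, was at 1.6 and 0.55 CPM and then at 1.4 and 1.35 CPM (0.24, SE 0.37, adjusted p = 0.620).

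The members below the filter followed no single direction. Wnt9a was at 0.8 and 1.55 CPM in the pools and at 0 in both embryos, and Wnt11, a non-canonical ligand, was at 0.8 and 0.55 CPM and then at 0. Wnt5b was at 3.15 and 0.55 CPM and then at 0.5 and 0.25 CPM. Wnt6 had 0.5 and 0.25 CPM at E18.5 and none at E16.5, and Wnt10a was at 0 in all 4 libraries. Each of these values rests on a handful of reads. Without the filter Wnt9a and Wnt11 met the threshold too, but they entered that test only through the pools, and for Wnt11 this sets a single read in each pool against none.

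Markers of mesenchyme moved with Wnt5a. The summed level of the 16 mesenchymal markers was 1998 and 946 CPM in the E16.5 HE pools and 93.1 and 96.8 CPM at E18.5. Of the 14 tested, all 14 fell, with a median log2 difference of -3.46 beside 0.23 for all genes. The most abundant was Col3a1 in the pools and in embryo 1, and Col1a1 in embryo 2; Twist1 was at 0 in HE pool 1, Thy1 in HE pool 2, and Foxl1 and Twist1 in both embryos. The cells had been sorted for GFP, and their part in the result was not tested. Red blood cell markers fell in 4 of 5 cases, with sums of 1176 and 1058 CPM in the pools and 26.4 and 54.7 CPM in the embryos. Markers of endothelium also fell in 5 of 5 cases, of which 1 passed the filter when either pool was left out. Those of immune cells fell in 5 of 6 (3 without HE pool 1 or embryo 2), while 5 of the 8 epithelial markers rose. Over all genes 49.6% were called. Cdh5, Emcn, Kdr and Tek (endothelium), Adgre1, Cybb, Itgax and Ptprc (immune cells), and Foxf1, Foxl1 and Pdgfra (mesenchyme) did not reach 1 CPM in both embryos. They passed the filter through the pools, so their falls lend little support.

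The step from E18.5 to adult life brought a rise of Wnt3, and no other ligand passed the test. It was at 2.1 and 1.35 CPM in the embryos, at 6.1 and 5.2 CPM in the duodenum and at 10.75 and 31.15 CPM in the ileum of mice 71 and 77. All 4 adult libraries were above both embryos, and the ileum of mouse 77 stood highest. The log2 difference was 2.07 (SE 0.62, 95% interval 0.63 to 3.52, adjusted p = 0.0615). This fit treated the 2 regions of each mouse as independent libraries, which its SE, interval and p do not allow for. Wnt3 stayed called when the 2 regions of each mouse were averaged. Of the 6 members tested (Wnt2b, Wnt3, Wnt4, Wnt5a, Wnt5b and Wnt9b), 1 was called, a rise, against 19.0% of 19554 genes. The call of Wnt3 was lost without E18.5 embryo 1 (adjusted p = 0.247) or embryo 2 (0.332), without the filter on low values (0.106) and at an FDR of 0.05, and held within the duodenum alone (log2 difference 1.30, adjusted p = 0.00948) and within the ileum alone (2.85, adjusted p = 0.00464). On the recovered reads edgeR gave Wnt3 a larger difference of 3.02 (adjusted p = 0.0744).

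The other tested ligands did not pass. Wnt2b was at 2.9 and 2.25 CPM in duodenum and 4.9 and 3.25 CPM in ileum, all above both embryos (log2 difference 0.59, SE 0.29, adjusted p = 0.222). Wnt4 was at 0.4 and 0.25 CPM in duodenum and 0.25 and 1.15 CPM in ileum, all below the embryos (-0.69, SE 0.30, adjusted p = 0.159), and it was called when the 2 regions of each mouse were averaged (adjusted p = 0.0890) or in the duodenum alone (0.0538), where it reached the filter only through the embryos. It was also called without the ileum of mouse 77 (log2 difference -0.87), again with only the embryos reaching the filter. Wnt9b was at 0.55 and 0.7 CPM and at 0.25 and 0.95 CPM, again below both embryos, through which alone it reached the filter (-0.62, SE 0.28, adjusted p = 0.177). These 3 ligands separated the stages in every library without reaching the threshold. Wnt5a was at 1.45 and 6.55 CPM in duodenum and 0.25 and 1.85 CPM in ileum, which overlapped E18.5 (0.27, SE 0.62, adjusted p = 0.814). Wnt5b, at 0.4 and 1.35 CPM and at 1.25 and 0.5 CPM, passed the filter through its adult libraries alone (0.41, adjusted p = 0.405). Wnt11 was between 0.25 and 0.5 CPM, Wnt6 was seen in the duodenum of mouse 71 at 0.2 CPM and nowhere else, and Wnt9a and Wnt10a were at 0 in all 4 adult libraries.

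Markers of several secretory cell types moved with Wnt3, those of Paneth cells among them. The summed level of the 10 markers was 178 and 170 CPM at E18.5, 19155 and 19856 CPM in duodenum and 13689 and 33326 CPM in ileum, with Lyz1 most abundant in the adult and Defa24 before birth. All 10 rose, with a median log2 difference of 5.97 beside -0.04 for all genes. None was at 0 in the adult, and Defa21 and Defa22 were at 0 in E18.5 embryo 1. Defa21, Defa22 and Mmp7 did not reach 1 CPM in both embryos and so passed the filter through the adult libraries. The ileum of mouse 77 had both the highest Paneth sum and the highest Wnt3. Tuft cell markers rose in 4 of 4 cases, from a few CPM in sum at E18.5 to 1713 and 3003 CPM in duodenum and 208 and 420 CPM in ileum. All 4 (Avil, Dclk1, Pou2f3 and Trpm5) passed the filter through the adult libraries in the same way. Calls that rest on the filter in this way lend little support. Goblet cell markers rose in 3 of 6, with sums of 443 and 303 CPM, 1479 and 1290 CPM, and 1803 and 6670 CPM, highest in the ileum of mouse 77 as well. Among them Zg16 passed the filter through the adult libraries alone. Over all genes 19.0% were called. The part of these markers in the result was not tested. Mesenchymal markers summed to 8.55 and 11.6 CPM in duodenum and 14.8 and 18.1 CPM in ileum, with Pdgfra at 0 in all 4, while Wnt5a in the duodenum of mouse 77 reached 6.55 CPM. The embryos of E18.5 served in both stage comparisons, which therefore are not independent.

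**Figure D1:**
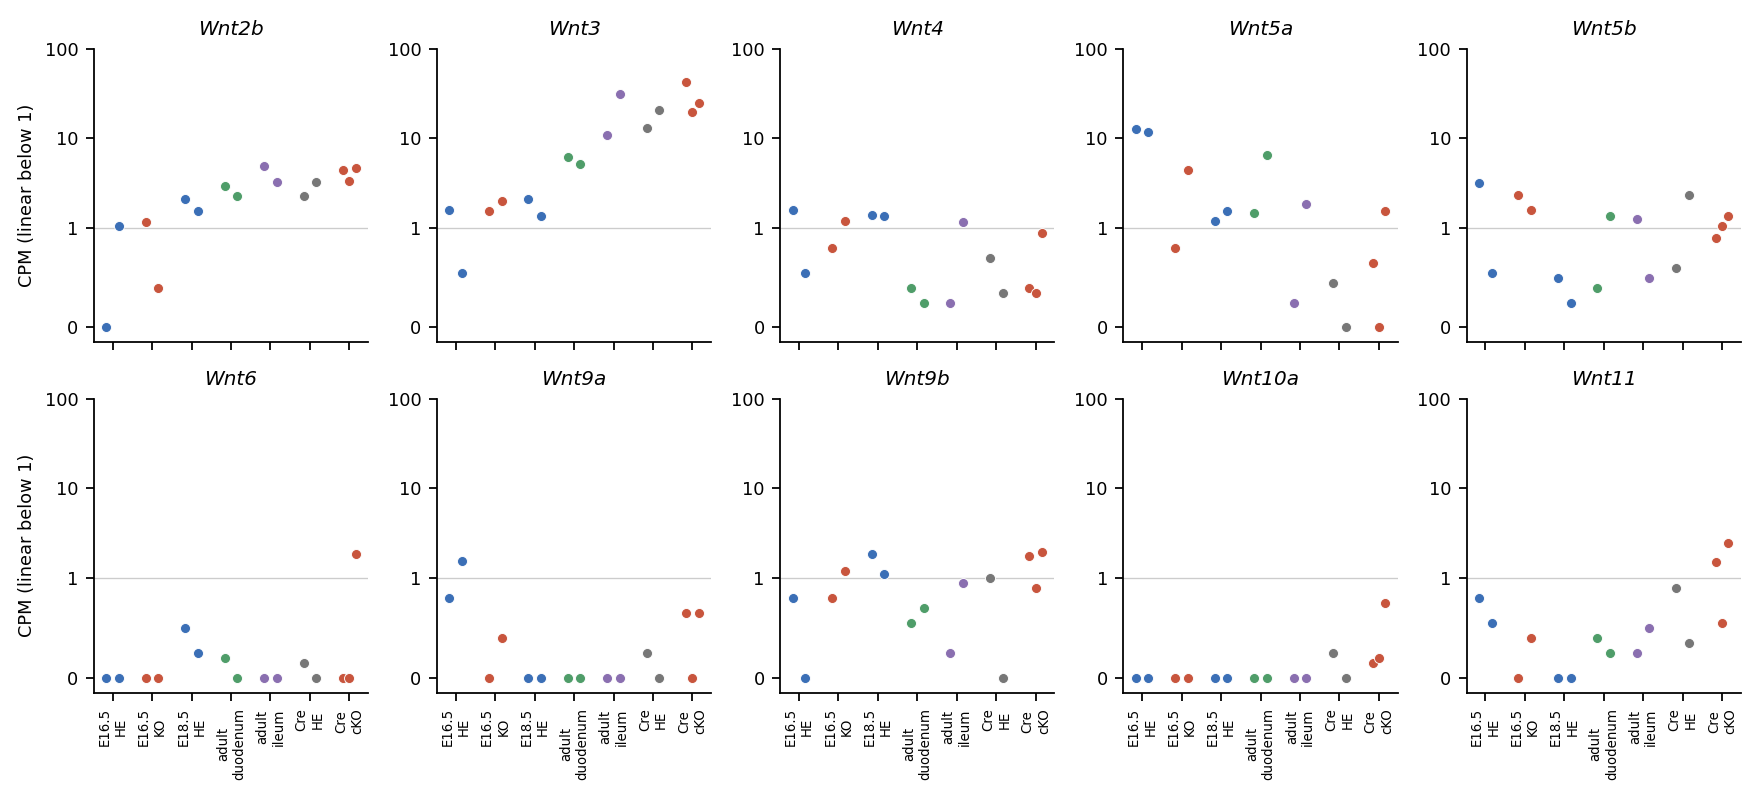
Level of each ligand gene (CPM, axis linear below 1 and logarithmic above) in each of the 15 sorted-cell libraries, 1 panel a gene and 1 point a library. Wnt5a stands at 12.55 and 11.65 CPM in the E16.5 HE pools, and Wnt3 is above 5 CPM in all adult libraries.

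The plot of levels in sorted cells shows these patterns gene by gene. Wnt5a has its 2 highest points at E16.5, and Wnt3 is higher in every adult library than in any from before birth. Wnt6, Wnt9a and Wnt10a are at 0 in most libraries. The highest value of all sorted libraries is that of the library labelled cKO 1 for Wnt3 and of the library labelled cKO 3 for Wnt6, Wnt9b, Wnt10a and Wnt11. The latter library stood apart, with 42154 genes above 0 against 22675 to 35792 in the other Cre libraries, and the part of this in the result was not tested.

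Per kilobase of exon, which allows levels of different genes to be ordered, the leading ligand changed with stage. In the E16.5 HE pools Wnt5a led with 1.54 CPM per kb, and its libraries did not overlap those of the next gene, Wnt5b, at 0.699. In the KO pools the order was Wnt5b (0.735), Wnt3 (0.577) and Wnt5a (0.332), where each overlapped the next but Wnt5b did not overlap Wnt5a. Since Wnt5b overlaps Fbxl14 in position, its counts and its place in both orders are uncertain. At E18.5 Wnt3 (0.561) and Wnt2b (0.434) led and overlapped, ahead of Wnt4 (0.328) and Wnt9b (0.326). In the adult Wnt3 stood alone, at 1.83 CPM per kb in duodenum and 6.79 in ileum, with Wnt2b next at 0.613 and 0.972. The Cre libraries had the same leader, with Wnt3 at 5.45 CPM per kb in those labelled HE and 9.41 in those labelled cKO.

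Between ileum and duodenum of the same mice, none of the 4 members tested (Wnt2b, Wnt3, Wnt5a and Wnt5b) was called by limma, although Wnt3 was higher in both ilea. The ileum held 10.75 CPM against 6.1 CPM in mouse 71 and 31.15 CPM against 5.2 CPM in mouse 77, a log2 difference of 1.55 (SE 0.45, 95% interval 0.49 to 2.61, adjusted p = 0.128). Wnt5a, in contrast, was lower in the ileum of each mouse, at 0.25 against 1.45 CPM and 1.85 against 6.55 CPM (-1.19, SE 0.61, adjusted p = 0.407). Both regions of a mouse form a true pair, and with the mouse as a replicate block Wnt3 (adjusted p = 0.0353) and Wnt5a (0.0560) were called, when 11.1% of all genes were. Without the block 6.88% of all 18608 genes were called, and 3035 had an unadjusted p below 0.05.

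Single libraries weighed heavily in this contrast. Without the ileum of mouse 77 the log2 difference of Wnt3 was 0.82 (adjusted p = 0.272), and without the ileum of mouse 71 it was 2.28 (adjusted p = 0.0152). The difference of Wnt5a was -2.00 without the duodenum of mouse 71 (adjusted p = 0.0487), -0.38 without that of mouse 77 (adjusted p = 1.00), -0.59 without the ileum of mouse 71 (0.763) and -1.78 without that of mouse 77 (0.263), so its size rested on single libraries. Wnt2b was higher in both ilea (0.49, SE 0.32, adjusted p = 0.532), and Wnt5b showed no order (0.02, SE 0.39, adjusted p = 0.992). Of the Paneth markers 1 of 10 rose, or 5 without the ileum of mouse 71, and the median was 0.21, while mesenchymal markers summed to less than 20 CPM in all 4 libraries, with 0 of 3 called. Other markers differed more between the regions: tuft cell markers fell in 4 of 4 cases from duodenum to ileum (median -2.85) and enterocyte markers in 7 of 8 (median -2.43), the direction of Wnt5a. The part of these markers in the result was not tested.

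Loss of Lgr5 at E16.5 went with less Wnt5a in both litters, a difference that the test did not pass. Wnt5a was at 0.8 CPM in KO pool 1 and 4.4 CPM in KO pool 2, or 2 and 11 reads, against the 12.55 and 11.65 CPM of the HE pools. The groups did not overlap, and the KO pool of litter 85, made from 2 embryos, was lowest. The log2 difference was -2.07 (SE 0.54, 95% interval -3.25 to -0.89, adjusted p = 0.152). None of the 5 members tested (Wnt2b, Wnt3, Wnt4, Wnt5a and Wnt5b) was called by limma, against 0.527% of 17276 genes, of which 2354 had an unadjusted p below 0.05; edgeR on the recovered reads also called 0 members (Wnt5a adjusted p = 0.104). With the litter as a replicate block Wnt5a was called (adjusted p = 0.00270), when 4.80% of all genes were. It was also called in a fit of all 15 sorted libraries (0.0730), with 7.29% of all genes, and without HE pool 1 (0.0497), HE pool 2 (0.0636) or KO pool 2 (0.00335), whereas without KO pool 1 the log2 difference was -1.28 (adjusted p = 0.665).

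The canonical ligands that were tested gave no sign of either direction at this depth. Wnt3 was at 1.55 and 2 CPM in the KO pools (log2 difference 0.46, SE 0.52, adjusted p = 0.737). Wnt2b was at 1.15 and 0.4 CPM (0.28, SE 0.58, adjusted p = 0.863) and Wnt4 at 0.8 and 1.2 CPM (-0.01, SE 0.53, adjusted p = 0.994). All 3 overlapped the HE pools, as did Wnt5b at 2.3 and 1.6 CPM (0.21, SE 0.58, adjusted p = 0.903). Below the filter, Wnt9b was at 0.8 and 1.2 CPM, Wnt9a and Wnt11 each at 0 and 0.4 CPM, and Wnt6 and Wnt10a at 0. For Wnt9a (0.8 and 1.55 CPM in the HE pools) and Wnt11 (0.8 and 0.55 CPM) both KO pools were below both HE pools, but 0.4 CPM was a single read.

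Mesenchymal markers summed to 209 CPM in KO pool 1 and 575 CPM in KO pool 2, each below the HE pool of its litter, with Col3a1 most abundant. Foxl1 and Twist1 were at 0 in KO pool 1, and Twist1 in KO pool 2. Of 14 tested 1 fell, and the median was -1.67 beside 0.08 for all genes; 10 fell without HE pool 1, 11 without HE pool 2, 1 without KO pool 1 and 13 without KO pool 2. KO pool 1 had both the lowest mesenchymal sum and the lowest Wnt5a of the 4, and the part of these markers in the result was not tested. Markers of red blood cells fell in 3 of 5 cases, with sums of 1176 and 1058 CPM in the HE pools and 308 and 491 CPM in the KO pools, and immune markers fell in 1 of 6, but in 2 of 5 without HE pool 1, 5 of 5 without HE pool 2 and 2 of 6 without KO pool 2. Enterocyte markers fell in 5 of 8 cases (median -1.24), with sums of 1949 and 1464 CPM in the HE pools and 721 and 588 CPM in the KO pools. Axin2, a beta-catenin target, rose (log2 difference 0.92, adjusted p = 0.0795) as the only 1 of 14 such targets to do so, and Lgr5 was the only 1 that fell. The call of Axin2 was lost without KO pool 1 (adjusted p = 0.139) and that of Lgr5 without KO pool 2 (0.118). Foxl1 of the mesenchymal markers and Cybb and Itgax of the immune ones needed the HE pools to pass the filter, so a fall of theirs lends little support. The HE pools also served in the comparison of E18.5 with E16.5.

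In adult ileum after tamoxifen, no ligand was called between the labelled genotypes. Wnt3 was at 13.05 and 20.45 CPM in the libraries labelled HE 1 and HE 2 and at 42.4, 19.6 and 24.75 CPM in those labelled cKO 1, 2 and 3. The library labelled cKO 1 was highest and the groups overlapped (log2 difference 0.71, SE 0.34, adjusted p = 0.864). Wnt2b was at 2.25 and 3.25 CPM and at 4.45, 3.35 and 4.65 CPM, so that all libraries labelled cKO were above both labelled HE (0.46, SE 0.30, adjusted p = 0.864). Wnt9b was at 1 and 0 CPM and at 1.75, 0.9 and 1.95 CPM (0.82, SE 0.42, adjusted p = 0.864).

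None of the 5 members tested (Wnt2b, Wnt3, Wnt5b, Wnt9b and Wnt11) was called by limma, against 0.0504% of 19848 genes, with 902 at an unadjusted p below 0.05. With the genotypes that the study's supplement assigned, 779 genes were called (3.92%), and again 0 members. The order of Wnt2b was then lost, with 2.25, 4.45 and 4.65 CPM in cKO against 3.25 and 3.35 CPM in HE. Its log2 difference was 0.11 under that assignment, and that of Wnt3 was 0.25. Wnt11, at 0.9 and 0.35 CPM and at 1.5, 0.55 and 2.45 CPM, passed the filter through libraries labelled cKO (0.57, SE 0.43, adjusted p = 0.864), and Wnt5b was at 0.6 and 2.3 CPM and at 0.9, 1.05 and 1.35 CPM (-0.14, SE 0.40, adjusted p = 0.958). The untested members stayed low: Wnt5a between 0 and 1.55 CPM, Wnt4 between 0.35 and 0.95 CPM, and Wnt9a between 0 and 0.65 CPM. Wnt6 was at 1.85 CPM in the library labelled cKO 3 and at or below 0.15 CPM in the rest, and Wnt10a was at 0.75 CPM in cKO 3 and at or below 0.25 CPM elsewhere. The same library had the most genes above 0, 42154, against 32121 in the library labelled HE 1 at a similar depth. Paneth marker sums were 5904 and 9251 CPM in the libraries labelled HE and 3262, 7137 and 3714 CPM in those labelled cKO, with Defa24 most abundant and none at 0, so the library with the highest Wnt3 had the lowest Paneth sum. With the supplement's genotypes these sums did not overlap, at 5904, 3262 and 3714 CPM in cKO against 9251 and 7137 CPM in HE.

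Organoids are epithelium grown without mesenchyme. Wnt5a, the main ligand of the E16.5 HE pools, lay between 0 and 0.1 CPM in all 30 organoid libraries. Mesenchymal markers there summed to between 8.90 and 19.9 CPM, with Tagln or Vim most abundant, Dcn at 0 in all 30 and Foxl1 at 0 in 28. Of the 10 members 5 passed the filter (Wnt2b, Wnt3, Wnt4, Wnt6 and Wnt9b), here at least 1 CPM in at least 2 of the 30 libraries. Wnt6 passed through libraries with Rspondin 2 at 100 ng/ml alone, 1 WT and 1 KO. A call in organoids means an adjusted p below 0.05.

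Wnt3 rose with the dose of each Rspondin in WT cultures. With Rspondin 1, WT10, WT5 and WT30 had 9.9, 8.25 and 8.35 CPM at 100 ng/ml and 3, 2.55 and 2.45 CPM at 5 ng/ml (log2 difference 1.42, SE 0.15, adjusted p = 3.00e-07). With Rspondin 2 WT5 and WT30 had 11.7 and 17.55 CPM, and WT10 had more than either (6.01 CPM per kb of exon beside their 3.80 and 5.71), against 3.55 CPM in WT10 and 3.15 and 2.8 CPM in the others at the low dose (2.00, SE 0.15, adjusted p = 2.18e-08). With Rspondin 3 they had 5.85, 5.55 and 7.15 CPM against 1, 1.4 and 1.3 CPM (1.68, SE 0.15, adjusted p = 9.92e-09). Every culture was higher at the high dose with every Rspondin, and the doses did not overlap. The 3 rises held under every alternative tried.

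In KO cultures the rise of Wnt3 was present with 2 Rspondins and missing with Rspondin 2. KO7 and KO2 had 11.6 and 9.8 CPM against 1.9 and 2.45 CPM with Rspondin 1 (log2 difference 1.88, SE 0.19, adjusted p = 2.07e-06), and 5.35 and 5.75 CPM against 1.3 and 1.4 CPM with Rspondin 3 (1.48, SE 0.19, adjusted p = 1.62e-06). With Rspondin 2 they had 9.7 and 8.75 CPM at 100 ng/ml and 8.35 and 10.15 CPM at 5 ng/ml. The doses overlapped, and the log2 difference was 0.00 (SE 0.19, 95% interval -0.38 to 0.38, adjusted p = 1.00), an interval that leaves out the rise of WT cultures. The dose effect of Rspondin 2 on Wnt3 differed between the genotypes by -2.00 on the log2 scale (SE 0.24, 95% interval -2.50 to -1.50, adjusted p = 5.17e-04). Without KO2 this difference was -1.81 with an adjusted p of 0.0764.

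The gap between genotypes came from both doses. At 5 ng/ml of Rspondin 2, both KO cultures were above all 3 WT cultures in Wnt3, with a log2 difference of 1.30 (SE 0.17, 95% interval 0.95 to 1.65, adjusted p = 1.16e-04), a call that held under every alternative tried. At 100 ng/ml both were below all 3 (-0.70, SE 0.17, adjusted p = 0.0392). The latter call was lost with culture as a random replicate block (adjusted p = 0.0650), with a pseudocount of 0.1 (0.0899), and without WT10, WT30, KO7 or KO2, each in turn (adjusted p up to 0.270). With Rspondin 1 the genotypes differed by 0.25 at 100 ng/ml and -0.21 at 5 ng/ml, and with Rspondin 3 by -0.13 and 0.08, none of them past the threshold (SE 0.17 in each). The dose effect differed between genotypes by 0.46 with Rspondin 1 (95% interval -0.04 to 0.96) and by -0.20 with Rspondin 3 (95% interval -0.70 to 0.29), both at an adjusted p of 1.00.

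**Figure D2:**
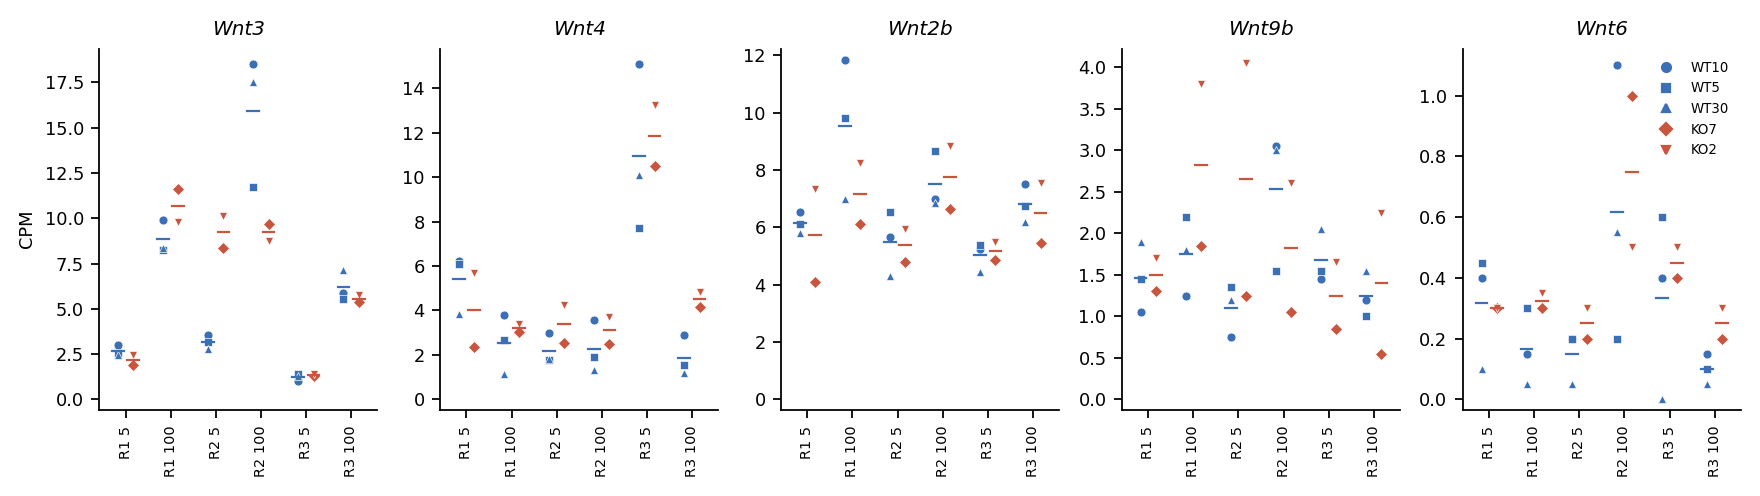
Level (CPM) of Wnt3, Wnt4, Wnt2b, Wnt9b and Wnt6 in the 30 organoid libraries by Rspondin, dose and genotype, with 1 symbol for each culture and a bar at each group mean. Wnt3 of the KO cultures with Rspondin 2 is as high at 5 ng/ml as at 100 ng/ml.

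The plot of organoid levels puts these groups side by side: Wnt3 pairs of high and low dose are apart everywhere except for Rspondin 2 in KO, and Wnt4 shows the opposite slope with Rspondin 3.

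Wnt4 went the other way. With Rspondin 3, WT10, WT5 and WT30 had 2.9, 1.55 and 1.2 CPM at 100 ng/ml and 15.1, 7.7 and 10.1 CPM at 5 ng/ml, a fall by 2.05 on the log2 scale (SE 0.32, adjusted p = 1.48e-05). KO7 and KO2 had 4.15 and 4.85 CPM against 10.5 and 13.25 CPM, where Wnt4 fell by 1.22 (SE 0.39, adjusted p = 0.0150). All 5 cultures had less Wnt4 at the high dose, without overlap. Without KO7 or KO2 the fall in KO kept its size (-1.28 and -1.16) but missed the threshold (adjusted p = 0.0999 and 0.138), and the genotypes' dose effects differed by 0.83 (SE 0.51, adjusted p = 1.00).

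With Rspondin 1 the WT cultures had 3.8, 2.65 and 1.15 CPM of Wnt4 against 6.25, 6.1 and 3.85 CPM, a fall by 0.91 (SE 0.32, adjusted p = 0.0213). Without WT5 or WT30 the difference was -0.88 and -0.78, and the call was lost (adjusted p = 0.115 and 0.0914). KO7 and KO2 had 3.05 and 3.4 CPM against 2.35 and 5.7 CPM, which overlapped (log2 difference -0.17, SE 0.39, adjusted p = 0.787). Rspondin 2 left no order of doses in Wnt4: 3.55, 1.9 and 1.3 CPM against 3, 1.75 and 1.8 CPM in WT (-0.01, SE 0.32, adjusted p = 0.989), and 2.5 and 3.7 CPM against 2.55 and 4.25 CPM in KO (-0.09, SE 0.39, adjusted p = 0.997). No difference of Wnt4 between genotypes passed the test; the largest was 0.97 with Rspondin 3 at 100 ng/ml (SE 0.36, adjusted p = 0.273).

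Wnt2b moved less with the dose of each Rspondin in WT cultures than Wnt3 did. In WT it was at 11.85, 9.8 and 7 CPM with Rspondin 1 at 100 ng/ml against 6.55, 6.1 and 5.8 CPM at 5 ng/ml, higher in all 3 cultures (log2 difference 0.54, SE 0.19, adjusted p = 0.0243). With Rspondin 2 it was at 7, 8.65 and 6.85 CPM against 5.65, 6.55 and 4.3 CPM (0.40, SE 0.19, adjusted p = 0.119), and with Rspondin 3 at 7.5, 6.75 and 6.2 CPM against 5.25, 5.4 and 4.45 CPM (0.37, SE 0.19, adjusted p = 0.113). Every WT culture had more Wnt2b at the high dose with every Rspondin. With culture as a replicate block the last 2 passed as well (adjusted p = 0.0144 and 0.0146), and under TMM scaling the Rspondin 1 call was lost (log2 difference 0.23, adjusted p = 0.275), as it was without WT10 or without WT5. Over all alternatives the differences with Rspondin 2 and Rspondin 3 went as low as 0.19 and 0.15.

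KO cultures had 6.1 and 8.25 CPM of Wnt2b against 4.1 and 7.35 CPM with Rspondin 1 (0.31, SE 0.24, adjusted p = 0.340), 6.65 and 8.85 CPM against 4.8 and 5.95 CPM with Rspondin 2 (0.45, adjusted p = 0.768) and 5.45 and 7.55 CPM against 4.85 and 5.5 CPM with Rspondin 3 (0.27, adjusted p = 0.379). In each of these pairs the high dose was above the low dose of the same culture. Genotype differences in Wnt2b lay between -0.35 and 0.04, and none passed.

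Wnt9b, the neighbour of Wnt3 on chromosome 11, resembled Wnt3 with Rspondin 2 but was not called in the fit of all 30 libraries. In WT with Rspondin 2 it was at 3.05, 1.55 and 3 CPM against 0.75, 1.35 and 1.2 CPM, higher in each culture (log2 difference 0.73, SE 0.30, adjusted p = 0.0652), and it was called with culture as a replicate block (adjusted p = 0.00275). Wnt9b was also called without KO7 or KO2, and leaving out each culture in turn gave differences of 0.49 to 1.04. With Rspondin 1 it was at 1.25, 2.2 and 1.8 CPM against 1.05, 1.45 and 1.9 CPM (0.16, adjusted p = 0.682), and with Rspondin 3 at 1.2, 1 and 1.55 CPM against 1.45, 1.55 and 2.05 CPM (-0.25, adjusted p = 0.498). KO7 and KO2 had 1.85 and 3.8 CPM against 1.3 and 1.7 CPM with Rspondin 1 (0.57, SE 0.37, adjusted p = 0.255, and 0.0432 with the culture block). With Rspondin 2 they had 1.05 and 2.6 CPM against 1.25 and 4.05 CPM, and with Rspondin 3 0.55 and 2.25 CPM against 0.85 and 1.65 CPM. KO2 was above KO7 in every condition. The genotypes' dose effects with Rspondin 2 differed by -1.04 in Wnt9b (SE 0.48, adjusted p = 0.364), and this was called with the culture block (adjusted p = 0.0450).

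Wnt6, a canonical ligand of epithelia, was at 1.1, 0.2 and 0.55 CPM in WT with Rspondin 2 at 100 ng/ml and at 0.2, 0.2 and 0.05 CPM at 5 ng/ml. Its difference met the threshold (log2 difference 0.46, SE 0.17, adjusted p = 0.0473), but it entered the test only through this Rspondin and dose, so the call lends no support, and WT5 did not differ between doses, and the call was lost with a pseudocount of 0.1 (adjusted p = 0.0776), with no filter (0.0689), without WT30 (0.197) and without KO2 (0.0741). Without WT10, without KO7 or under TMM scaling Wnt6 did not pass the filter and was not tested. KO7 and KO2 had 1 and 0.5 CPM against 0.2 and 0.3 CPM. In the other conditions Wnt6 stayed at or below 0.6 CPM. Wnt10a, its neighbour on chromosome 1, was highest in the same condition, at 0.7, 0.5 and 0.25 CPM in WT and 0.55 and 0.3 CPM in KO, and it was at or below 0.4 CPM elsewhere. It failed the filter, and without that filter its rise with Rspondin 2 in WT was 0.53 (adjusted p = 6.10e-04).

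The remaining ligands were seen in traces. Wnt9a had a lowest, median and highest level of 0.35, 0.6 and 0.9 CPM over the 15 libraries at 100 ng/ml and of 0.3, 0.55 and 0.85 CPM over those at 5 ng/ml, so the doses overlapped. Wnt5b lay between 0 and 0.8 CPM, highest in WT10 and WT30 with Rspondin 2 at 100 ng/ml. Wnt11 reached 0.9 CPM in WT10 with Rspondin 3 at 5 ng/ml and stayed at or below 0.3 CPM in all others.

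Counted by comparison, the dose called 3 of 5 members in WT with Rspondin 1 (Wnt3 and Wnt2b up, Wnt4 down; background 53.4% of 19130 genes), 2 with Rspondin 2 (Wnt3 and Wnt6 up, the latter let in by the filter through this very condition; 33.4%) and 2 with Rspondin 3 (Wnt3 up, Wnt4 down; 51.4%). In KO it called 1 with Rspondin 1 (Wnt3 up; 29.8%) and 2 with Rspondin 3 (Wnt3 up, Wnt4 down; 44.5%). With Rspondin 2 in KO limma called 0 members and 22 genes in all (0.115%), with 1327 genes at an unadjusted p below 0.05. A dose that moves up to every second gene makes the members' counts unremarkable, so the result lies in the direction and size for Wnt3 and Wnt4. Some of these shares leaned on single cultures. With Rspondin 2 in WT the share was 9.28% without WT30, where Wnt3 was still called. With Rspondin 1 in KO it was far lower without KO7, a fit with a single library in each KO group. All 6 dose comparisons come from 1 fit and share its error estimate. Under TMM scaling the median of all genes moved from 0.28 to -0.00 with Rspondin 1, from 0.17 to -0.03 with Rspondin 2 and from 0.24 to 0.05 with Rspondin 3 in WT; Wnt3 was then at 1.14, 1.78 and 1.53, and Wnt4 at -1.17, -0.17 and -2.29. In KO the median moved from 0.19 to -0.01 with Rspondin 1 and from 0.24 to 0.02 with Rspondin 3, and Wnt3 was then at 1.69 and 1.29.

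Between genotypes, limma called 1 member, Wnt3, with Rspondin 2 at 100 ng/ml (a fall; 1.20% of all genes) and 1, again Wnt3, at 5 ng/ml (a rise; 4.54%). It called 0 of 5 with Rspondin 1 at 100 ng/ml (0.214%, with 1688 genes at an unadjusted p below 0.05) and at 5 ng/ml (0.125%, with 1599), and 0 of 5 with Rspondin 3 at 100 ng/ml (0.868%, with 2046) and at 5 ng/ml (0.193%, with 1033). For the difference of dose effects it called 1 member with Rspondin 2, Wnt3 (0.439%), and 0 with Rspondin 1 (0 of all genes, 0%, with 516 at an unadjusted p below 0.05) and with Rspondin 3 (0 of all genes, 0%, with 430). Wnt3 was thus called where few genes were: 84 of 19130 for the difference of dose effects with Rspondin 2. The genotype and dose comparisons share libraries and are not independent.

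**Figure D3:**
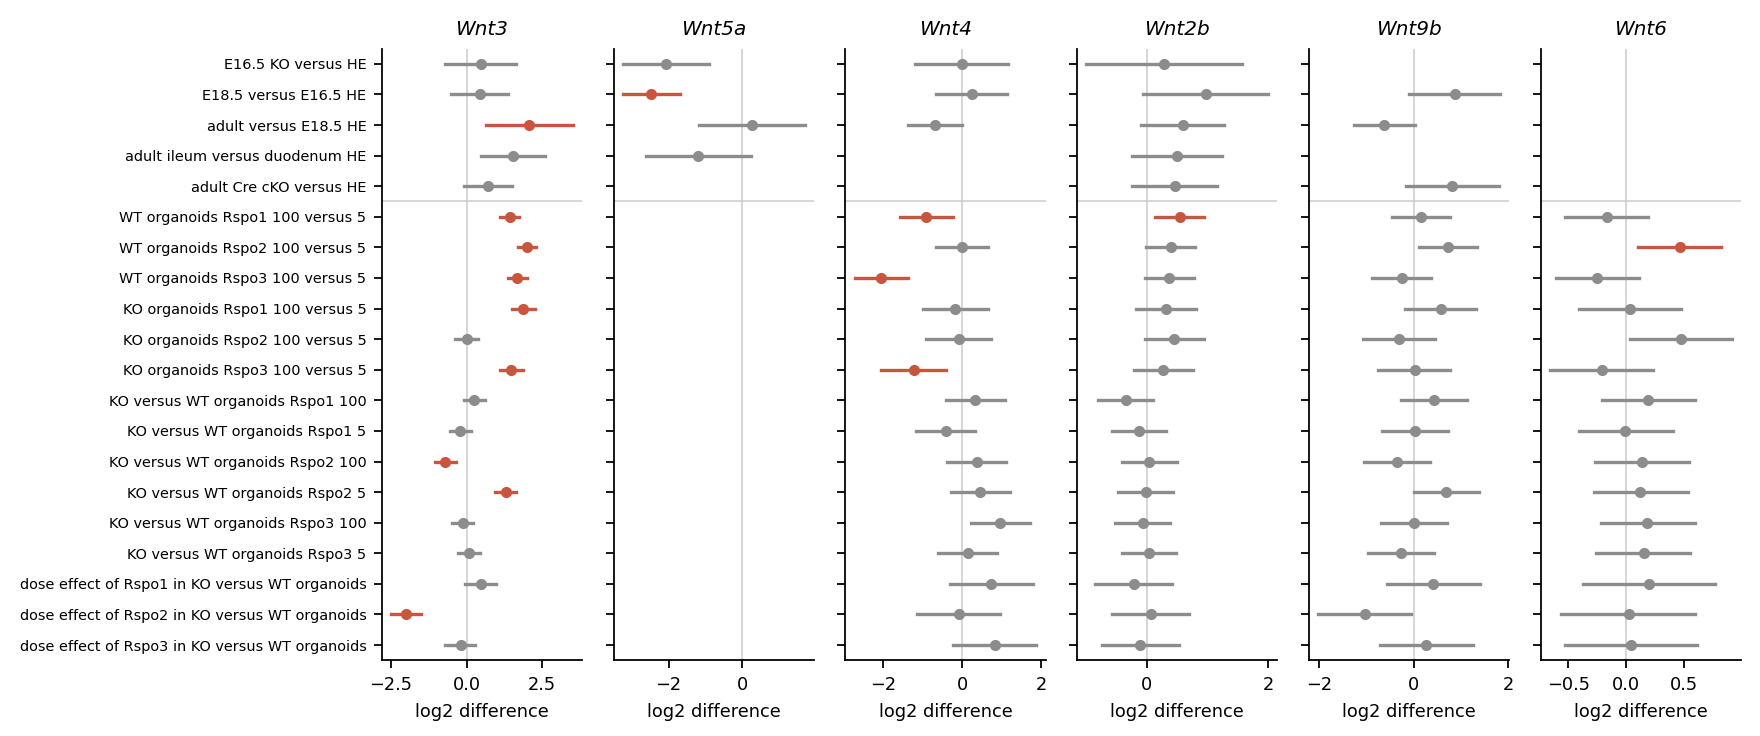
Log2 difference (point) with its 95% interval (line) for Wnt3, Wnt5a, Wnt4, Wnt2b, Wnt9b and Wnt6 in the comparisons where each was tested, red where called. For Wnt3 in KO organoids with Rspondin 2 the interval runs from -0.38 to 0.38.

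In the plot of differences the intervals of Wnt3 and Wnt2b are wider in the sorted-cell comparisons, which had fewer reads and fewer libraries, than in organoids. Wnt3 has 5 red points among the dose comparisons, all to the right of 0.

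Ligands were also compared among the 3 Rspondins at equal dose. At 5 ng/ml, 2 of the 5 members tested differed among the Rspondins in WT (Wnt3, adjusted p = 1.06e-04, and Wnt4, 2.31e-04; 43.0% of all genes) and in KO (Wnt3, 6.23e-08, and Wnt4, 0.00377; 41.7%), a share no larger than that of all genes. At 100 ng/ml 1 differed in WT (Wnt3, 1.45e-04; 8.08%), and with culture as a replicate block Wnt2b (0.0491), Wnt9b (0.0406) and Wnt6 (0.0318) did too, when 24.5% of all genes were called. Wnt6 passed the filter only through libraries with Rspondin 2 at this dose, so its call lends no support. In KO at that dose limma called 0 (0.00523% of all genes, with 519 at an unadjusted p below 0.05; Wnt3 adjusted p = 0.749). Relative to Rspondin 1, Wnt3 in WT at 100 ng/ml was higher by 0.76 with Rspondin 2 and lower with Rspondin 3 (-0.46). At 5 ng/ml it was at 0.18 and -0.72 in WT and at 1.69 and -0.43 in KO. Wnt4 at 5 ng/ml was at -1.01 with Rspondin 2 and 0.88 with Rspondin 3 in WT, and at -0.13 and 1.43 in KO. The call of Wnt4 in KO was lost without KO7. Whether these amounts were equal in activity, as the study's methods intended after pilot assays, was not tested here.

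Per kilobase of exon the order of ligands turned with the dose. At 100 ng/ml Wnt3 led in all 6 groups, from 1.81 CPM per kb (KO with Rspondin 3, overlapping Wnt2b at 1.55) to 5.17 (WT with Rspondin 2, clear of Wnt2b at 1.79). In WT with Rspondin 1, Wnt3 at 2.87 overlapped Wnt2b at 2.27. At 5 ng/ml Wnt4 led with Rspondin 3, at 2.62 CPM per kb in WT and 2.83 in KO, clear of Wnt2b at 1.20 and 1.23, with Wnt3 behind at 0.401 and 0.439. Wnt2b led with Rspondin 1, at 1.46 in WT and 1.36 in KO, overlapping Wnt4. With Rspondin 2 Wnt2b (1.31) and Wnt3 (1.03) overlapped in WT, while in KO Wnt3 led at 3.00, clear of Wnt2b at 1.28.

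Markers of some cell types moved with these ligands. Paneth marker sums in WT10, WT5 and WT30 were 1682, 937 and 1225 CPM against 514, 288 and 334 CPM with Rspondin 1, 2116, 1262 and 1711 CPM against 537, 488 and 427 CPM with Rspondin 2, and 641, 559 and 776 CPM against 237, 218 and 264 CPM with Rspondin 3. In KO7 and KO2 they were 1073 and 1021 CPM against 229 and 455 CPM, 937 and 1052 CPM against 1223 and 1171 CPM, and 916 and 854 CPM against 237 and 334 CPM. As for Wnt3, the sum was higher at the high dose in every culture with every Rspondin except Rspondin 2 in KO. There both cultures had the higher sum at the low dose, while Wnt3 was higher at the low dose in KO2 but not in KO7. Of 9 markers tested, 8, 8 and 7 rose with dose in WT, with 1, 0 and 1 falling, and 8, 0 and 8 rose in KO. Over all genes the dose called 53.4%, 33.4% and 51.4% in WT and 29.8%, 0.115% and 44.5% in KO, in either direction. When KO7 was left out 2 rose with Rspondin 1 in KO, and in WT none fell with Rspondin 1 without any 1 of the cultures, or with Rspondin 3 without WT5 or WT30. Between genotypes 5 of 9 were higher in KO with Rspondin 2 at 5 ng/ml, 3 without WT10 and 2 without WT30, with a median of 1.39 beside 0.09 for all genes. In that comparison 4.54% of all genes were called. The most abundant marker was Lyz1, Itln1, Reg3g or Defa24 depending on the library. Defa21 was at 0 in 17 of the 30 libraries, and Lyz1 in none. Their part in the result was not tested.

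Stem cell markers did the same: 6 of 6 rose in 5 dose comparisons and 0 of 6 with Rspondin 2 in KO, where 4 of 6 were higher than in WT at 5 ng/ml. With Rspondin 1 in KO 3 rose when KO7 was left out, and the 4 became 1 without WT10, WT30 or KO2. Enterocyte markers fell with dose where Wnt4 did, but also with Rspondin 2 in WT and Rspondin 1 in KO, where Wnt4 was not called. Most goblet cell markers did not fall where Wnt4 did. The summed enterocyte level was on average highest with Rspondin 3 at 5 ng/ml, the condition with most Wnt4, at 9373, 9198 and 9902 CPM in WT and 9753 and 8788 CPM in KO, against 5761, 3983 and 7161 CPM and 6073 and 3700 CPM at 100 ng/ml. With dose 6, 5 and 6 of 8 fell in WT and 4, 0 and 6 of 8 in KO, in the order of Rspondin 1, 2 and 3. In that order 53.4%, 33.4% and 51.4% of all genes were called in WT and 29.8%, 0.115% and 44.5% in KO. Counts near these shares say little about a marker list. Of 6 goblet cell markers 1, 4 and 1 fell in WT, with 1, 0 and 1 rising, and 2, 0 and 2 fell in KO; without WT10 or WT30 none fell with Rspondin 3 in WT. With Rspondin 2 in WT markers of both cell types fell although Wnt4 did not pass, but without WT30 none of either did, and without WT10 the counts were 1 and 2. In KO the counts for enterocytes and goblet cells were 1 and 0 with Rspondin 1 without KO7, 2 and 1 without KO2, and 2 and 0 with Rspondin 3 without KO2. Alpi, Sis or Apoa4 was most abundant, none of the 8 was at 0 in any library, and their part in the result was not tested.

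**Figure D4:**
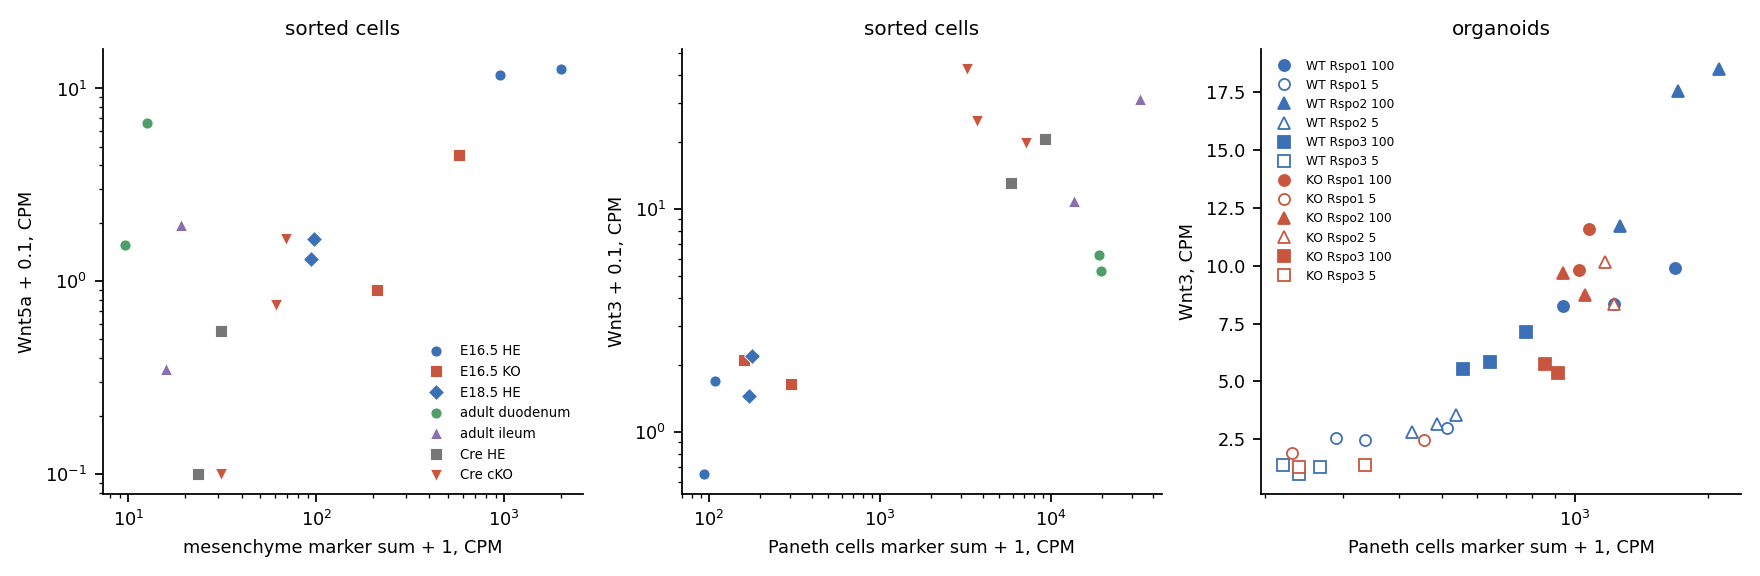
Level of a ligand (CPM) against the summed level of a marker list (CPM), 1 point a library: Wnt5a against mesenchymal markers and Wnt3 against Paneth cell markers in sorted cells, and Wnt3 against Paneth cell markers in organoids. The E16.5 HE pools stand alone at the top of the first panel, and Cre libraries have high Wnt3 at Paneth sums below those of adult duodenum.

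The plot of ligands against marker sums shows where the pairs part. In organoids Wnt3 and the Paneth sum climb together in both genotypes. In sorted cells the Cre libraries, with Paneth sums of 3262 to 9251 CPM, have Wnt3 at 13.05 to 42.4 CPM, above the 6.1 and 5.2 CPM of adult duodenum with sums of 19155 and 19856 CPM. The ileum of the other line had Wnt3 at 10.75 and 31.15 CPM with sums of 13689 and 33326 CPM, so the lower Paneth sums of the Cre libraries were not shared by all ileum. Allele, tamoxifen and sorting gate differed between the lines and cannot be told apart.

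Some other genes of the pathway moved with Wnt3 in organoids. Of the 9 other Wnt genes 3 could be tested. Wnt2, a canonical ligand, was called higher at the high dose with each Rspondin in WT and with Rspondin 1 in KO, but it passed the filter only through libraries at the high dose, so these calls lend little support. Wnt7b rose in KO with Rspondin 1 (1.61) and Rspondin 3 (2.13). Wnt7b was also higher in KO than in WT with Rspondin 3 at 100 ng/ml, at 12.45 CPM in KO7 and 2.5 CPM in KO2 against 0.65, 0.45 and 0.5 CPM in WT10, WT5 and WT30 (2.16, adjusted p = 0.0231). Among WT libraries it reached 1 CPM only in WT5 with Rspondin 2 at 100 ng/ml (1.35 CPM). It thus passed the filter through the KO cultures in which it was high, and this call lends little support. The call of Wnt7b with Rspondin 1 was lost without WT10 (adjusted p = 0.0512), which serves that test through the error alone. Without KO7 the difference between genotypes was 1.19, and the call was lost without WT10 (adjusted p = 0.163), WT5 (0.159) or WT30 (0.196). The carrier Wls, which every Wnt protein needs to leave the cell, rose with dose in WT (1.72, 0.86 and 1.73) and in KO with Rspondin 1 and 3 (1.40 and 1.68). Porcn rose with Rspondin 1 (0.76) and Rspondin 3 (0.57) in WT and with Rspondin 3 in KO (0.72). The call of Wls with Rspondin 1 in KO was lost without KO7 (1.06, adjusted p = 0.0677), and those of Porcn with Rspondin 3 were lost in WT without WT10 (0.121) or WT30 (0.0713) and in KO without KO7 (0.190) or KO2 (0.0691). Notum, an enzyme that removes the lipid, was called with Rspondin 2 in WT (0.62), the only condition that carried it past the filter, so this call lends little support. Of these 3 genes 0 were called with Rspondin 2 in KO.

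Of 9 Frizzled genes tested, 4 rose and 2 fell with Rspondin 1, 3 rose and 2 fell with Rspondin 2 and 5 rose and 1 fell with Rspondin 3 in WT, where 53.4%, 33.4% and 51.4% of all genes were called; in KO the counts were 4 and 2, 0 and 0, and 4 and 2. Without KO7 they were 1 and 0 with Rspondin 1 and 3 and 1 with Rspondin 3, and without KO2 they were 4 and 1 with Rspondin 1. With Rspondin 3 in WT the counts were 4 and 0 without WT10 or WT5, where the call of Fzd4 was lost (adjusted p = 0.101 and 0.163). The largest rise in WT was that of Fzd2 with Rspondin 1 (1.82) and Rspondin 3 (2.37) and of Fzd9 with Rspondin 2 (1.96), and the largest fall was that of Fzd5 with Rspondin 1 (-0.87), of Fzd4 and Fzd5 alike with Rspondin 2 (-1.19 each) and of Fzd4 with Rspondin 3 (-0.54). Beta-catenin targets moved in a single direction: 15, 15 and 13 of 15 rose with dose in WT and 15, 2 and 13 in KO, with medians of 2.05, 2.44 and 2.36 and of 2.44, 0.60 and 2.69. With Rspondin 2 at 5 ng/ml 11 of 15 were higher in KO than in WT (median 1.47), led by Axin2 (2.62), Ascl2 (2.56) and Sp5 (2.53), but 4 without WT10 or WT30 and 5 without KO2. The call of Axin2 was lost without each of these cultures (adjusted p = 0.0849, 0.174 and 0.151), and that of Sp5 without KO2 (0.0781). The 2 targets of Rspondin 2 in KO became 0 without KO7. The dose effect of 6 of 15 differed between genotypes in the direction seen for Wnt3, led by Lgr5 (-3.51), Sp5 (-3.21) and Ascl2 (-2.97), but 0 were called without WT10, WT30 or KO2, and 11 without KO7. Without KO2 the values were -2.23, -2.21 and -1.91 (adjusted p = 0.802, 0.903 and 0.769).

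In sorted cells the pathway gave fewer calls. Wls rose from E18.5 to the adult (log2 difference 0.70, adjusted p = 0.0389), beside Wnt3, but not without embryo 1 (0.298) or embryo 2 (0.186), and 9 of 16 beta-catenin targets were called higher there, or 5 when either embryo was left out, against 19.0% of all genes, led by Tnfrsf19 (3.51), Ephb3 (3.47) and Lef1 (2.60), of which Lef1 passed the filter only through the adult libraries. From E16.5 to E18.5, where 49.6% of all genes were called, 3 of 4 secreted antagonists tested were called lower, as was Wnt5a: Sfrp1 (-4.29), Dkk3 (-3.11) and Sfrp2 (-1.06), of which Dkk3 and Sfrp2 passed the filter only through the pools. When either pool was left out 1 of 2 tested was called lower, and the call of Sfrp2 was lost without embryo 1 (adjusted p = 0.519) or embryo 2 (0.307). None of the 9 other Wnt genes passed the filter in the comparisons of E16.5 pools, of E18.5 with E16.5 or of Cre libraries; 1 passed it in the adult comparisons and was not called.

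Over the 30 organoid libraries, the genes whose levels were most like those of a member were found by Pearson's r of log2(CPM + 1) among 12338 genes, as a description. For Wnt3 they were Bhlha15 (0.980), Sorcs2 (0.972), Soat1 (0.969), Zfp697 (0.968) and Habp2 (0.967). Bhlha15 codes for Mist1, a transcription factor of secretory cells. For Wnt4 they were Slc28a1 (0.940), Tmem139 (0.934), Gm16054 (0.932), Slc46a3 (0.931) and H2-K2 (0.930). Slc28a1 codes for a nucleoside transporter. For Wnt2b they were Cspp1 (0.909), Dclre1c (0.903), Gm37940 (0.899), Gm43462 (0.897) and Slc25a29 (0.896). The likeness was lowest for Wnt9b, with Pon2 (0.764), Twsg1 (0.752), Sp4 (0.752), Acss2os (0.739) and Slc16a13 (0.736). The libraries share 5 cultures and 6 conditions, so they are not 30 independent samples.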

How the data were processed

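RNA was sequenced from 15 libraries of sorted cells and 30 of organoids. The authors trimmed reads with Trimmomatic 0.36, aligned them to GRCm38 with STAR 2.5.3a and counted genes with HTSeq 0.9.1, and the deposited tables give library-scaled counts (CPM), stored in steps of 0.05 CPM. The organoid table names no unit and was read as CPM because its columns share the total of the other table. Library depths were recovered from those steps; the CPM were not scaled further. Levels were tested as log2(CPM + 1) with limma 3.58.1 (empirical Bayes, trend) in R 4.3.3, with Benjamini-Hochberg adjustment over all genes tested. Each sorted-cell comparison used its own libraries, genes that reached 1 CPM in 2 or more of them, an FDR of 0.1 and a fold of 1.5. Organoids were fitted together, with an FDR of 0.05. In the 15 sorted libraries 100% of values below 20 CPM equalled a whole number of reads rounded up to the next step, a weak check in the deepest library, where a read is worth about 2 steps. These recovered reads were also tested with edgeR 4.0.16 (quasi-likelihood), which called 310 of 17276 genes between the E16.5 pools. The edgeR tests of the other sorted comparisons had been planned and were run last, with the other results known.

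All 10 members are named wherever tested; genes of the other lists are named if called, from the 3 largest changes in each direction. Members and lists were chosen with earlier results of these data known. Pairing was checked by the correlation of replicate deviations over genes between groups: -0.03 for E16.5 litters, 0.26 for adult mice, 0.36 for the Cre libraries, whose numbers pair no mice, and a median of 0.38 to 0.56 for organoid cultures (the pairs are those of the sample labels). Alternatives were another pseudocount, no filter, TMM scaling, replicate blocks and each library left out. Figures were drawn with matplotlib 3.10.9, and tables with pandas 2.3.3.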

Additional observations from a re-analysis of the deposited data

Results flagged for a closer look

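In the 4 adult HE libraries of duodenum and ileum, Wnt4 was at 0.4, 0.25, 0.25 and 1.15 CPM. The ileum of mouse 77 stood apart, with a gap to the nearest library of 0.833 of the whole range. Wnt6 was at 0.2 CPM in the duodenum of mouse 71, a single read, and at 0 in the other 3, which makes the gap 1.00 of the range. This check covered 8 members in the group of 4 libraries, and chance alone sets a sample apart in about 1 in 20 groups of independent, continuous values. Here the libraries were duodenum and ileum of the same mice, with few reads, so that rate need not hold. A read in a single library gives a gap of 1.00 for any gene.

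The effect of the Rspondin 2 dose on Wnt3 differed between KO and WT organoids by -2.00 on the log2 scale, by the test of that difference. The dose moved Wnt3 by 2.00 in WT cultures and by 0.00 in KO cultures, and the cause was not tested.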

How the results depend on the processing

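The number of members called was recomputed 233 times: 190 times it stayed within 1.5 times the count reported and 43 times it did not. The number of all genes called, used as the background, stayed within that limit 144 times and did not 89 times. Of 1097 single tests of a member, 1042 kept their side of the threshold, although the sign of some uncalled differences turned, 32 passed it newly, 23 no longer passed, and 0 called values changed sign. The causes of the changes below were not tested.

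With the replicate block, the count was 1 for E16.5 KO against HE, 3 for E18.5 against E16.5 and 2 for ileum against duodenum, when 4.80%, 51.2% and 11.1% of all genes were called (0.527%, 49.6% and 6.88% without the block). With culture as a replicate block, it was 4 for the Rspondin 2 dose in WT, 2 for the Rspondin 1 dose in KO, 2 for the difference of Rspondin 2 dose effects and 4 among Rspondins in WT at 100 ng/ml, when 47.5%, 43.8%, 3.97% and 24.5% of all genes were called. Both counts of 4 include Wnt6, which passed the filter only through Rspondin 2 at 100 ng/ml. With culture as a random replicate block it was 0 for KO against WT with Rspondin 2 at 100 ng/ml. With 1 fit of all 15 sorted libraries, it was 1 for E16.5 genotype, 3 for E18.5 against E16.5 and 1 for region, when 7.29%, 51.4% and 7.98% of all genes were called. With every gene of a nonzero library tested, it was 3 for E18.5 against E16.5, 0 for adult against E18.5 and 2 among Rspondins in WT at 100 ng/ml. Adult against E18.5 gave 0 at an FDR of 0.05, 2 with duodenum alone and 2 with the mean of both regions of each mouse. A pseudocount of 0.1 gave 1 for the Rspondin 2 dose in WT and 0 for KO against WT with Rspondin 2 at 100 ng/ml, and TMM scaling gave 1 for the Rspondin 2 dose in WT.

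Leaving out each library in turn gave 0 to 1 members for E16.5 genotype, 1 to 2 for E18.5 against E16.5, 0 to 2 for adult against E18.5 and 0 to 2 for region. In organoids it gave 1 to 3 and 1 to 2 for the Rspondin 1 and 2 doses in WT, 1 to 2 for the Rspondin 3 dose in KO, 0 to 1 and 1 to 2 for KO against WT with Rspondin 2 at 100 and 5 ng/ml, 0 to 1 for the difference of Rspondin 2 dose effects, and 1 to 2 among Rspondins in WT at 100 ng/ml and in KO at 5 ng/ml. Where a single library was left in a group, it was assumed to vary like the others. For genes and counts of the pathway and marker lists, leaving out each library or culture was chosen after seeing the data; the calls and counts that changed are given beside them.

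For the Cre libraries TMM scaling moved the median of all genes from 0.09 to -0.04. The edgeR test on recovered reads changed no count of members in the 5 sorted comparisons; it called 310 genes for E16.5 genotype, 8820 for E18.5 against E16.5, 3705 for adult against E18.5, 1211 for region and 10 for the Cre libraries. Groups of 2 or 3 libraries and single reads worth up to 0.784 CPM limit what the sorted cells can show of any ligand below a few CPM, and intervals of the fits carry no counting error of single reads.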
